A study of Homo sapiens with 11 samples.

Results

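A total of 22751 replication origins of U2OS cells overlapped an origin of HCT116 RepID KO cells and shared no base with a CUL4A or CDT2 peak. They were chosen by a rule on 4 lists of enriched regions: a U2OS origin on chromosomes 1 to 22, narrower than 10 kb, had to share at least 1 bp with an HCT116 RepID KO origin and none with the CUL4A or CDT2 list. The U2OS list held 127325 origins, of which 126050 lay on these chromosomes and 121234 were also under the width limit. The chosen origins, called cross-line ligase-free origins here, were therefore 18.8% of the origins considered and 17.9% of the whole list. Ligase-free means only that no listed CUL4A or CDT2 peak shared a base with the origin. SKP2, a part of another ligase, had peaks at some of these origins, and no list of RepID peaks was used. They covered 69176000 bp.

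A replication origin is a site at which the licensed helicase is activated and DNA synthesis starts in both directions. Only some of the licensed sites fire in a given cell cycle, and which sites fire differs between cell types. CUL4A is a scaffold protein of CRL4, a ubiquitin ligase. CDT2 serves CRL4 as a substrate receptor that, on chromatin with PCNA, directs the licensing factor CDT1 to degradation in S phase. RepID is another receptor of this kind (a DCAF) and binds a subset of origins. SKP2 recognises substrates for SCF, a ligase built on CUL1 that also targets CDT1. H3K4me3 marks active promoters and H3K9me3 marks heterochromatin.

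The study asked how RepID brings CUL4 to chromatin and what replaces this pathway when RepID is lost. Origins had been mapped by sequencing short nascent DNA strands that survive lambda exonuclease, in unsynchronized U2OS osteosarcoma cells with wild-type (WT) RepID and in HCT116 colon carcinoma cells of a RepID KO clone. CUL4A, H3K4me3 and H3K9me3 were mapped by ChIP-Seq in the same unsynchronized U2OS cells without treatment, and SKP2 in HCT116 WT and in HCT116 RepID KO cells. For CDT2 the sample is titled U2OS, whereas the design text names a stable U2OS line that overexpresses full-length FLAG-tagged RepID, and this conflict was not settled. RepID had been deleted with CRISPR-Cas9, so that KO origins come from cells that differ from U2OS in tissue of origin and in RepID, and these differences cannot be told apart. Each condition had 1 library. No difference could be set against a spread between replicates, no test was made, and the 95% intervals given cover the error of counting regions only. They treat neighbouring regions as independent, which they are not. The lists hold no library totals, so the sequencing depth is unknown. No gene was assigned to an origin, because the positions are on hg19, for which no annotation was used here.

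Of the 121234 origins considered, 40.4% overlapped an HCT116 RepID KO origin and 68.4% were free of CUL4A and CDT2. The rule used both properties, and they are given as a description. Among the 48982 cross-line origins, 24901 met a CUL4A peak, 7578 met a CDT2 peak and 6248 met both. An HCT116 RepID KO origin was present at 68.5% of the 38310 origins with CUL4A or CDT2 (Wilson 95% interval 68.0 to 68.9%) and at 27.4% of the 82924 origins without either (27.1 to 27.7%). The remaining 60173 ligase-free origins, called U2OS-only ligase-free origins, had no partner in the KO list and were the nearest comparison group. The 2 groups with CUL4A or CDT2 were the 26231 cross-line origins and the 12079 U2OS-only origins.

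Cross-line ligase-free origins were frequently marked by H3K4me3 and rarely by H3K9me3. Neither mark was used to choose them. An H3K4me3 peak overlapped 4586 of the 22751, a share of 20.2% (Wilson 95% interval 19.6 to 20.7%), beside 10.8% of all origins considered. At U2OS-only ligase-free origins the share was 3.15% (3.01 to 3.29%), a difference of 17.0 percentage points (Newcombe 95% interval 16.5 to 17.6) and a ratio of 6.41. Cross-line origins with CUL4A or CDT2 carried H3K4me3 at 22.5% (22 to 23%), and cross-line ligase-free minus these was -2.31 points (-3.03 to -1.58). U2OS-only origins with CUL4A or CDT2 carried it at 6.44% (6.02 to 6.89%). H3K4me3 thus separated origins by overlap with an HCT116 RepID KO origin much more than by the presence of CUL4A or CDT2.

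H3K9me3 showed the other order. It overlapped 2003 cross-line ligase-free origins, a share of 8.80% (8.44 to 9.18%), beside 17.8% of all origins considered. The U2OS-only ligase-free origins stood close by at 10.1% (9.89 to 10.4%), with a difference of -1.32 points (-1.76 to -0.877). Its size depended on the settings, from -0.601 points with stricter marks to -2.54 points with the stronger 50% of U2OS origins. With CUL4A or CDT2 the share was 32.0% at cross-line origins (31.4 to 32.5%) and 42.7% at U2OS-only origins (41.8 to 43.6%), and the cross-line ligase-free origins differed from these by -23.1 points (-23.8 to -22.5) and -33.9 points (-34.9 to -32.9). For this heterochromatin mark the presence of CUL4A or CDT2 went with the larger difference.

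**Figure D1:**
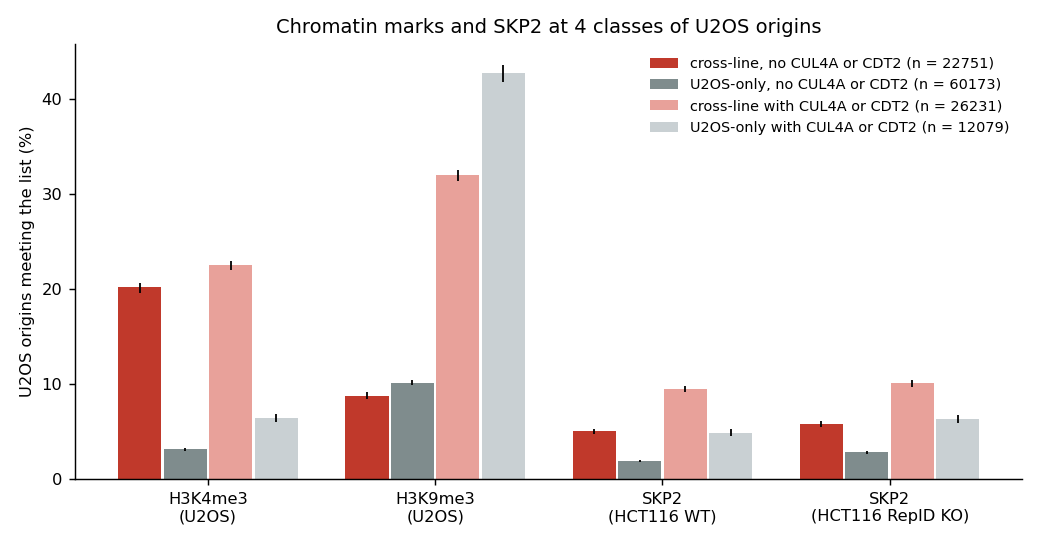
Percentage of U2OS origins that overlap a peak of H3K4me3, H3K9me3 or SKP2 (y axis) in 4 classes of origins defined by a partner among HCT116 RepID KO origins and by overlap with CUL4A or CDT2. Bars start at 0 and the lines are Wilson 95% intervals over origins of 1 library. For H3K4me3 both cross-line bars stand at 20.2 and 22.5%, and for H3K9me3 both bars with CUL4A or CDT2 stand at 32.0 and 42.7%.

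SKP2 peaks of HCT116 cells were present at few of the chosen origins, but at a larger share than at their U2OS-only counterparts. In HCT116 WT cells SKP2 overlapped 1147 cross-line ligase-free origins, 5.04% (4.76 to 5.33%), beside 4.46% of all origins considered and 1.96% (1.85 to 2.08%) of U2OS-only ligase-free origins. The difference was 3.08 points (2.78 to 3.39), a ratio of 2.57. In HCT116 RepID KO cells SKP2 overlapped 1322 of them, 5.81% (5.51 to 6.12%), beside 5.33% of all origins considered and 2.85% (2.72 to 2.99%) of the U2OS-only group, a difference of 2.96 points (2.63 to 3.29). With 1 kb around each centre in place of the whole origin the differences were 1.83 points in WT and 1.60 points in RepID KO cells. Their shares were thus near those of all origins. Cross-line origins with CUL4A or CDT2 carried SKP2 at 9.50% in WT and 10.1% in RepID KO cells, from which the cross-line ligase-free origins differed by -4.45 and -4.29 points. Against U2OS-only origins with CUL4A or CDT2, the WT difference of 0.149 points had an interval from -0.337 to 0.621 and could not be told from 0, and the RepID KO difference was -0.564 points (-1.10 to -0.0395). SKP2 and the KO origins were mapped in the same cell line, whereas the other lists came from U2OS, and the part of this in the SKP2 values was not tested.

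The SKP2 lists of WT and RepID KO cells shared few sites, at the cross-line ligase-free origins as elsewhere. Both lists met 232 of these origins, which was 20.2% of those with SKP2 in WT cells (18.0 to 22.6%) and 17.5% of those with SKP2 in RepID KO cells (15.6 to 19.7%). Among the chosen origins without SKP2 in WT cells, 5.05% had it in RepID KO cells (4.76 to 5.35%). At U2OS-only ligase-free origins 79 were shared, or 6.69% of those with SKP2 in WT cells and 4.60% of those with it in RepID KO cells. Over all origins considered the shares were 18.2% (17.2 to 19.3%) and 15.3% (14.4 to 16.2%), near those of the chosen origins, and over the whole autosomal SKP2 lists 13.7% of the WT and 12.1% of the RepID KO peaks met a peak of the other list. At the chosen origins SKP2 was less frequent where H3K4me3 was present. It overlapped 3.49% of the chosen origins with H3K4me3 (3 to 4.06%) and 5.43% of those without (5.11 to 5.77%) in WT cells, and 3.29% (2.81 to 3.85%) and 6.45% (6.10 to 6.81%) in RepID KO cells. Where H3K9me3 was present, SKP2 overlapped 6.44% in WT cells and 7.24% in RepID KO cells, beside 4.91% and 5.67% where it was absent. Over all origins considered these shares were 7.92% and 9.08% with H3K9me3, beside 3.71% and 4.51% without it. At U2OS-only ligase-free origins SKP2 was also lower with H3K4me3, though the intervals overlapped. It was 1.64% with and 1.97% without the mark in WT cells, and 2.43% and 2.87% in RepID KO cells. Over all origins considered, SKP2 was instead more frequent with H3K4me3 (6.52% in WT and 5.90% in RepID KO cells) than without it (4.21% and 5.26%).

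Among the cross-line ligase-free origins 4280 carried H3K4me3 without H3K9me3, 1697 carried H3K9me3 without H3K4me3 and 306 carried both. H3K9me3 was found at 6.67% of those with H3K4me3 (5.99 to 7.43%) and at 9.34% of those without it (8.93 to 9.77%). The same shares were 8.56% and 10.2% at U2OS-only ligase-free origins, and 19.8% and 17.6% over all origins considered. Both marks together were found at 1.34% of the chosen origins, 0.269% of the U2OS-only ligase-free origins and 2.14% of all. None of the 4 lists of H3K4me3, H3K9me3 and SKP2 touched 14742 of them, or 64.8%, beside 67.9% of all origins considered and 83.1% of the U2OS-only ligase-free origins. A single chosen origin met all 4 lists.

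Cross-line ligase-free origins were wider than U2OS-only ones, and in both groups H3K4me3 and H3K9me3 were more frequent at wider origins. Their median width was 2600 bp (quartiles 1600 and 4000 bp), beside 2000 bp for the U2OS-only ligase-free origins, 3200 bp for cross-line and 2200 bp for U2OS-only origins with CUL4A or CDT2. The widths are set in part by the rule, since a wide region overlaps more easily, so the shares were also read within 6 classes of width. In origins of 200 to 1000 bp, H3K4me3 was present at 16.7% of 2615 cross-line (15.4 to 18.2%) and 2.26% of 11719 U2OS-only ligase-free origins (2.01 to 2.55%). In origins of 6200 to 9800 bp the shares were 24.2% of 1870 (22.3 to 26.2%) and 5.18% of 1661 (4.21 to 6.35%). The H3K4me3 difference ranged over the 6 classes from 14.5 to 19 points. The H3K9me3 difference was negative in each of them, between -3.06 and -2.05 points, and larger in size than without classes. SKP2 was more frequent at cross-line ligase-free origins in the 6 classes, by 2.16 to 5.07 points in WT and 2.21 to 5.08 points in RepID KO cells.

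**Figure D2:**
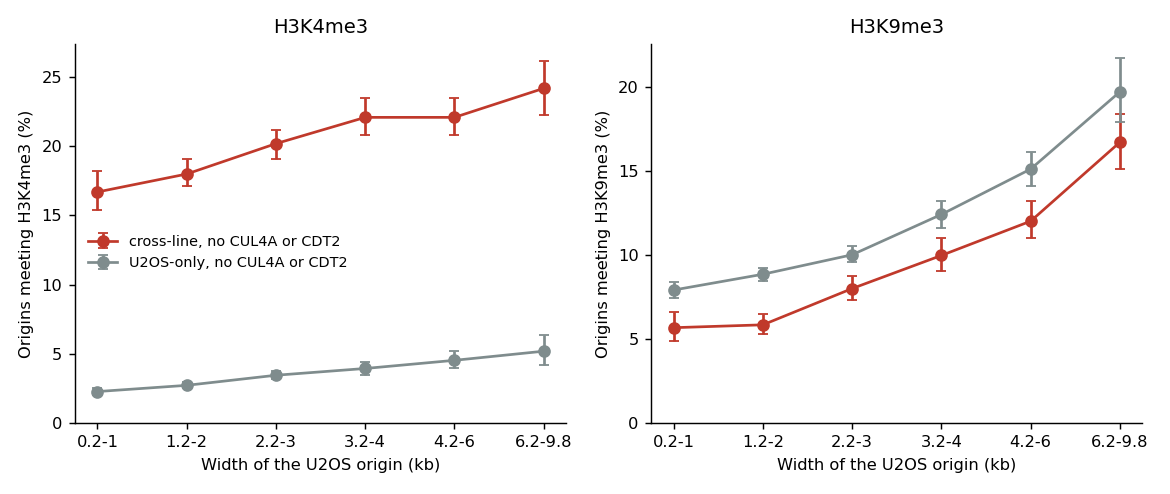
Percentage of ligase-free origins that overlap H3K4me3 (left) or H3K9me3 (right) in 6 classes of origin width in kb (x axis), with Wilson 95% intervals. Cross-line origins lie 14.5 to 19 points above U2OS-only origins for H3K4me3, and for H3K9me3 the difference runs from -3.06 to -2.05 points.

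H3K4me3 was centred on these origins. At the centre of the cross-line ligase-free origins (within 200 bp) H3K4me3 covered 14.4% of them, and 3.46% in the outermost 1 kb of a window of 10 kb on each side, a ratio of 4.15. U2OS-only ligase-free origins had 1.71% at the centre, less than the 2.41% in the outer window, and a minimum of 1.19% at 1300 bp from the centre. With CUL4A or CDT2 the cross-line profile reached 13.6% over 4.77%, and the U2OS-only profile 2.92% over 2.74%. H3K9me3 was no higher at the centre of the cross-line ligase-free origins, 1.40%, than in the outer window, 1.49%, though it passed through a minimum of 0.703% at 1900 bp. In the U2OS-only ligase-free origins it stood at 2.55% over 1.09%, and in U2OS-only origins with CUL4A or CDT2 at 13.8% over 1.26%. SKP2 covered 1.49% of the cross-line ligase-free centres in WT cells and 1.53% in RepID KO cells, beside 0.453% and 0.488% in the outer window.

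**Figure D3:**
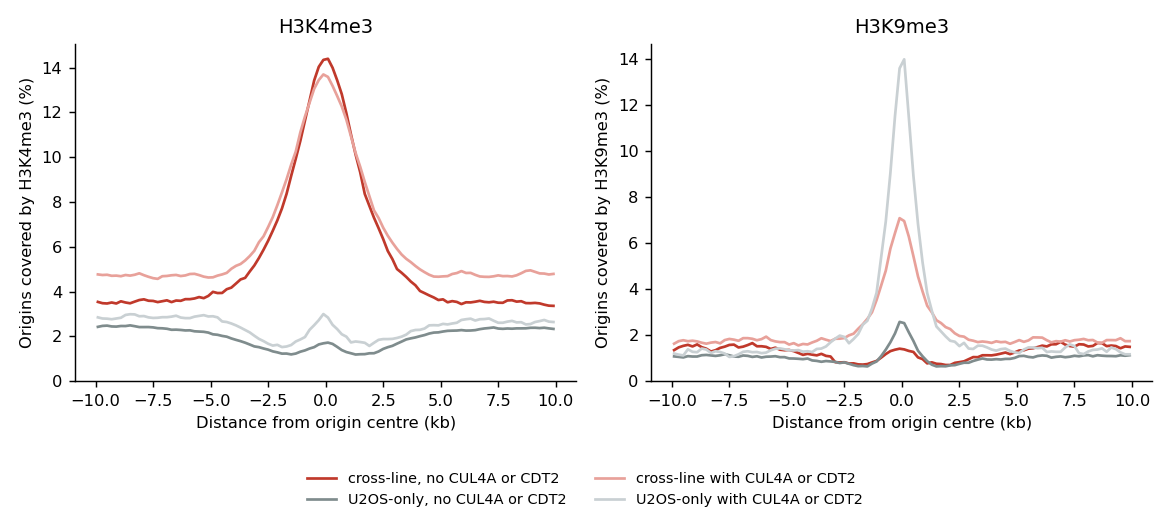
Percentage of origins covered by H3K4me3 (left) or H3K9me3 (right) at each distance from the origin centre in kb, for the 4 classes. H3K4me3 reaches 14.4% at the centre of cross-line ligase-free origins and 1.71% at that of U2OS-only ligase-free origins, and H3K9me3 is highest, 13.8%, in U2OS-only origins with CUL4A or CDT2.

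Where a cross-line ligase-free origin met H3K4me3, the peak lay over its centre in 71.4% of cases, whereas this held for 54.0% of the U2OS-only ligase-free origins with the mark. A median of 70.6% of such an origin was covered, and 1127 origins (24.6%) lay wholly inside the mark. H3K9me3 covered the centre of 15.9% of the chosen origins that met it, beside 25.6% of the U2OS-only ones, and a median of 11% of their length. The H3K9me3 peaks were narrow, with a median of 318 bp at the chosen and at the U2OS-only ligase-free origins. Chosen origins with H3K9me3 had a median width of 3400 bp. The part of these widths in the centre and cover values was not tested. The 4576 H3K4me3 peaks that met the chosen origins were 18.9% of the autosomal list. Their median width was 2932 bp and their median fold enrichment over the control 9.21, beside 1902 bp and 7.10 over the whole list, with a maximum of 37.3 where the list reached 59.5. The medians were 2638 bp and 8.71 at cross-line origins with CUL4A or CDT2, and 2342 bp and 8.04 at U2OS-only ligase-free origins. At U2OS-only origins with CUL4A or CDT2 they were 770 bp and 5.52. H3K4me3 peaks that met no origin under 10 kb, 47.9% of the list, had medians of 1308 bp and 6.04. The part of peak width in which peaks met an origin was not tested. The 2094 H3K9me3 peaks at the chosen origins were 3.73% of their list and had a median fold of 3.75 (list 4.03). Their highest fold was 9.48, whereas the list reached 61.7, at a peak on a U2OS-only ligase-free origin. The chosen origins were met by 1161 SKP2 peaks of WT cells, 9.73% of that list, and 1345 of RepID KO cells, 9.95%.

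The partner origins in HCT116 RepID KO cells were seldom the same interval. The chosen origins met 22164 of the 83872 autosomal KO origins, or 26.4%. A single KO origin was met by 21286 of them and 2 or more by 1465, with at most 4. Of their bases 60% lay inside KO origins, 6929 origins (30.5%) lay inside completely and 15607 (68.6%) were covered by at least 50%. Only 270 had the same start and end in both lines. The centres lay a median of 900 bp apart (quartiles 400 and 1900 bp), and 33.2% were within 500 bp. The partners had a median width of 2600 bp (quartiles 1600 and 5400 bp), and 2611 (11.5%) of the chosen origins had a partner of 10 kb or more.

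At the chosen origins the authors' scores, whose scale is not stated, hardly went together between U2OS and HCT116 RepID KO cells. The U2OS score of the chosen origins had a median of 103 (quartiles 71 and 162) and ran from 24 to 5504. It was 76 at U2OS-only ligase-free origins and 141 at cross-line origins with CUL4A or CDT2, but per kb of width the medians were 41.1, 40.4 and 44.2. The highest 10% of the chosen origins held 25.6% of their summed score. The score of the KO partner had a median of 210, beside 153 over the whole KO list. Over the 22751 pairs the rank correlation (Spearman) of the scores was 0.04 and that of the scores per kb 0.09. This is a description over pairs from 1 library each, whose scores both grow with the width of the region. The 1815 KO origins met by 2 or more chosen origins could enter more than 1 pair. Other cross-line origins were not examined in this way.

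The share with H3K4me3 followed the KO score more than the U2OS score. In quintiles of the partner's score it was 12.5, 15.1, 21.4, 27.9 and 23.9%, so that the fourth quintile was the highest and the first (11.5 to 13.4%) the lowest. In quintiles of the U2OS score it was 18.2, 17.3, 21.1, 20.9 and 23.3%. The U2OS origins differed in width between the U2OS quintiles, from a median of 1200 bp in the first to 5600 bp in the fifth. In the KO quintiles the U2OS origins had median widths of 2400 to 2800 bp. By width of the KO partner the H3K4me3 share was 18.3% up to 1 kb, 24.5% at 1 to 2 kb and 20.9% at 2 to 4 kb. It was 16.8% at 4 to 10 kb and 18.2% at 10 kb or more. The part of partner width in the KO quintiles was not tested. Chosen origins with H3K4me3 had a median partner score of 307, those without it 190, while their U2OS scores per kb were 41.0 and 41.1. H3K9me3 was more frequent at higher U2OS score and width, from 5.17% in the first to 14.3% in the fifth quintile, and went from 9.75 to 6.75% over the KO quintiles. SKP2 of RepID KO cells was 10.0% in the fifth U2OS quintile (9.16 to 10.9%) and 3.90 to 5.75% in the other 4.

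A tighter overlap did not go with more H3K4me3. Chosen origins covered by 10% or less carried the mark at 15.0% (12.3 to 18.1%), those covered by 10 to 25% at 22.8% (21.2 to 24.5%), and those inside a KO origin completely at 17.1% (16.2 to 18.0%). Completely covered origins were also narrower, with a median width of 1800 bp beside 3400 bp for 10 to 25%. SKP2 of WT cells rose with cover, from 3.14% (1.99 to 4.90%) at 10% or less to 6.29% (5.74 to 6.89%) at complete cover. SKP2 of RepID KO cells was 6.97% (5.16 to 9.35%) at 10% or less. It rose only from 4.39% at 10 to 25% to 6.48% at complete cover.

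Seen from HCT116 RepID KO cells, H3K4me3 was again the frequent mark. Of KO origins under 10 kb without CUL4A or CDT2, 22774 met a U2OS origin and 19.1% of these overlapped U2OS H3K4me3 (18.6 to 19.6%). The 25675 without a U2OS origin did so at 13% (12.6 to 13.4%), although no U2OS origin was listed there, which is above the 3.15% of the U2OS-only ligase-free origins. H3K9me3 stood at 7.43% (7.10 to 7.78%) of the KO origins with a U2OS partner and 4.02% (3.78 to 4.26%) of those without. The KO-only origins were narrower, with a median of 1400 bp beside 2000 bp. U2OS origins without a listed HCT116 RepID KO partner were thus the poorest in H3K4me3 of these ligase-free groups, although the mark was mapped in U2OS cells. No list of HCT116 WT origins was used, so whether such origins were present in HCT116 cells with RepID is unknown.

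Although free of CUL4A and CDT2 by the rule, the chosen origins lay near these peaks. The median distance to the nearest one was 6000 bp (quartiles 2200 and 15312 bp), beside 17200 bp for U2OS-only ligase-free origins, and 44.3% lay less than 5 kb away, beside 19.7%. Because the rule used the 2 lists, these distances are a description. H3K4me3 ran in opposite directions with distance in the 2 groups. At cross-line ligase-free origins it was 18.0% within 1 kb (16.6 to 19.6%), 16.2% between 1 and 5 kb, 19.5% between 5 and 20 kb, 28.6% between 20 and 100 kb and 37.0% beyond 100 kb (32.8 to 41.4%, 481 origins). At U2OS-only ligase-free origins it was 5.62% within 1 kb (4.68 to 6.73%), then 3.81, 3.13 and 2.91%, and 1.92% beyond 100 kb (1.57 to 2.36%, 4731 origins). The median width of the chosen origins was 2600 bp in the 4 nearer classes and 2000 bp in the farthest. H3K9me3 went from 7.79% (6.79 to 8.92%) to 11.2% (8.71 to 14.4%) over the same classes.

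**Figure D4:**
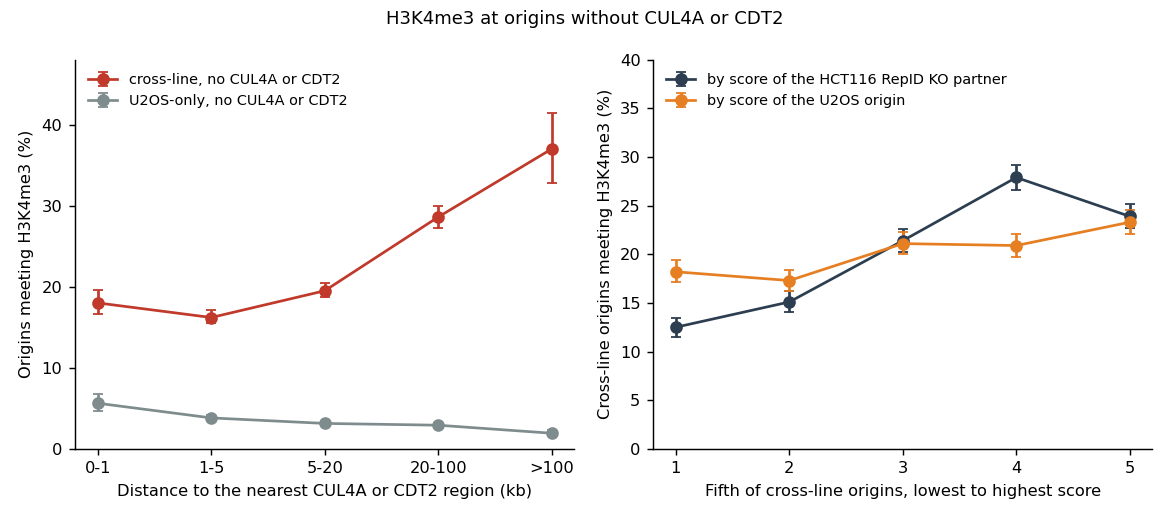
Percentage of ligase-free origins that overlap H3K4me3, by distance to the nearest CUL4A or CDT2 peak in kb (left, cross-line and U2OS-only origins) and by quintile of the authors' origin score in HCT116 RepID KO or in U2OS cells (right, cross-line origins), with Wilson 95% intervals. Cross-line origins go from 18.0 to 37.0% with distance while U2OS-only origins go from 5.62 to 1.92%, and the KO score spans 12.5 to 27.9%.

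The neighbourhood of the chosen origins was rich in origins and peaks. Within 50 kb on each side lay a mean of 9.37 U2OS origins (itself included) and 7.75 KO origins, beside 6.87 and 2.85 for U2OS-only ligase-free origins. The mean numbers of CUL4A peaks were 4.50 and 1.96, of CDT2 peaks 1.75 and 1.03, of H3K4me3 peaks 1.74 and 0.957 and of H3K9me3 peaks 2.93 and 2.34. No H3K4me3 peak lay within 50 kb of 28.7% of the chosen and 49.0% of the U2OS-only ligase-free origins. The origins counted here were in part used by the rule, and how far the neighbourhood accounts for the H3K4me3 share was not tested.

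Chosen origins were unevenly spread along the genome, and all origins considered were uneven between chromosomes too. The latter numbered 4023 on chromosome 19 and 1199 on the longer chromosome 13. Gaps were not measured for all origins considered. The median gap between neighbouring chosen origins was 32600 bp (quartiles 9400 and 94600 bp), and 17.5% of gaps were under 5 kb. Of 2872 windows of 1 Mb, 549 (19.1%) held no chosen origin, and 199 held no origin of either ligase-free group. Per Mb of chromosome, measured to the last listed region, chromosome 19 held the most chosen origins, 17.1, and chromosome 13 the fewest, 2.34. Chromosome 13 was also lowest in U2OS-only ligase-free origins, with 4.97 per Mb. Chosen origins were 22.4% of the origins considered on chromosome 13 and 25.1% on chromosome 19, beside 18.8% over chromosomes 1 to 22. Out of 100 ligase-free origins 53.4 were cross-line on chromosome 19 and 16.1 on chromosome 4. H3K4me3 was more frequent at cross-line than at U2OS-only ligase-free origins on 22 of 22 chromosomes, by 13.1 points on chromosome 18 up to 21.2 points on chromosome 7. The share at the chosen origins themselves ran from 15.7% on chromosome 18 to 27.7% on chromosome 19. H3K9me3 was less frequent at cross-line origins on 20 chromosomes and more frequent on the other 2, with differences from -2.83 points on chromosome 19 to 0.223 points on chromosome 15. SKP2 was more frequent on 22 of 22 chromosomes in both HCT116 lines, by as little as 0.201 points for RepID KO cells on chromosome 13.

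**Figure D5:**
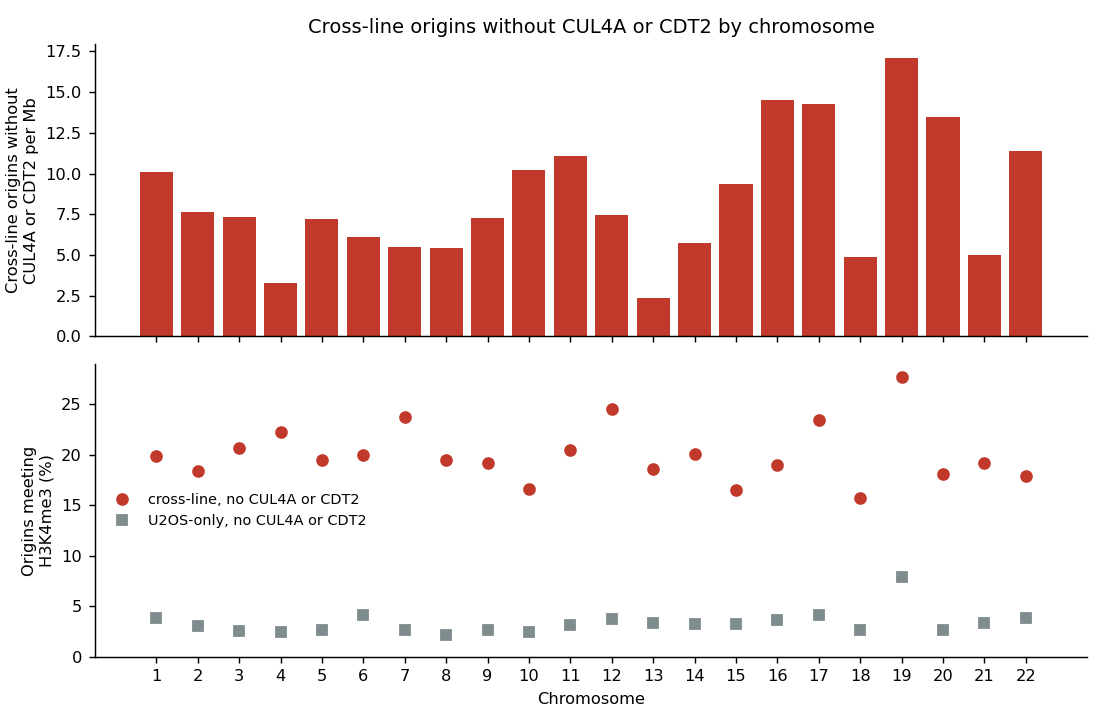
Cross-line ligase-free origins per Mb (top, bars from 0) and percentage of cross-line and U2OS-only ligase-free origins that overlap H3K4me3 (bottom) on chromosomes 1 to 22. Density runs from 2.34 per Mb on chromosome 13 to 17.1 on chromosome 19, and the cross-line points, 15.7 to 27.7%, lie above the U2OS-only points on each chromosome.

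Chosen origins in denser windows carried H3K4me3 less often. In each class of density the share stayed above the 10.8% of all origins considered. Where a window of 1 Mb held 1 to 5 chosen origins, 28.3% of them overlapped the mark (26.7 to 30.0%), followed by 22.8% (21.4 to 24.3%) at 6 to 10, 20% (19.1 to 21%) at 11 to 20 and 16.9% (16.2 to 17.7%) at 21 or more. The fullest window, chr16:86000001-87000000 on hg19, held 63 chosen and 12 U2OS-only ligase-free origins, and 3 of the 63 met H3K4me3. The next windows on this chromosome arm, from 84000001 to 86000000 and from 87000001 to 88000000, held 51 each, of which 2 to 7 met the mark. These windows were named after their values had been seen.

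The chosen origins with the highest U2OS scores included several short regions with high KO scores and SKP2. Positions are on hg19, with 1 origin taken per chromosome and chromosome 8 left out. The highest, chr21:9825401-9827800, scored 5504 and lay inside a KO origin of 2600 bp that scored 44480. It met SKP2 in WT but not in RepID KO cells and neither histone mark. The second, chr12:95201-95800, scored 1896 inside a KO origin of 18600 bp, with SKP2 in both lines. At chr1:91852601-91853200, with a score of 1375, the KO origin had the same start and end and SKP2 was present in WT cells. At chr9:44070601-44071400, with 1187, SKP2 scored 1633 in WT and 1619 in RepID KO cells. Only chr6:43207201-43216400, at 9200 bp the widest of these and with a score of 1246, carried histone marks, H3K4me3 at 4.61-fold and H3K9me3 at 3.68-fold enrichment, and it had no SKP2 peak. Such scores were rare, since the upper 10% of the chosen origins began at 244. Mappability and copy number at these positions could not be examined, and their part in the scores and in the SKP2 peaks was not tested.

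The highest KO partner scores belonged to very wide KO regions that contained ordinary U2OS origins. A KO region of 161600 bp with a score of 102035 held chr16:88452601-88453600, whose U2OS score was 98. One of 144600 bp held chr1:2389601-2392200 (121), one of 103800 bp held chr17:79369801-79371400 (94) and one of 131600 bp held chr9:137216001-137217400 (66). The last carried H3K4me3 at 9.83-fold, and the other 3 met neither histone mark nor SKP2. CUL4A peaks lay 600 to 3200 bp from these 4 origins. The next highest partner score in this selection was that of the chromosome 21 origin named before.

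The strongest H3K4me3 peaks without H3K9me3 fell on origins with U2OS scores of 82 to 195. At chr6:153321001-153324600 the fold enrichment was 29.4, the U2OS score 103 and the KO score 101, and the nearest CUL4A peak was 101600 bp away. At chr15:101140401-101144000 it was 28.7, at chr1:85723001-85728200 28.5 and at chr19:18683201-18686000 28.4, with CUL4A 41400, 48400 and 8200 bp away. Over all chosen origins the median distance to CUL4A was 9800 bp with H3K4me3 and 6400 bp without.

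The H3K9me3 peaks at the chosen origins stayed below the highest fold of their list, 61.7. Folds of the 2 marks come from different libraries and were not compared. The highest fold among chosen origins without H3K4me3 was 9.39, at chr9:138599801-138606000, whose KO partner was 16600 bp wide and scored 7339. The fold was 8.56 at chr6:44470201-44476000, 8.43 at chr7:142128601-142131800 and 8.16 at chr1:223800401-223802600. The last origin touched a CUL4A peak end to end without a shared base. None of these 4 met SKP2.

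The 4 named origins with SKP2 in both HCT116 lines lay completely inside their KO partner. At chr1:184078801-184080400 the SKP2 score of the authors was 4792 in WT and 3899 in RepID KO cells. It was 2396 and 3632 at chr7:157943601-157944400, 2344 and 3558 at chr12:131130601-131131800, and 4068 and 3518 at chr21:44082601-44083400. These 4 origins were 800 to 1600 bp wide, and H3K4me3 was present at the chromosome 7 origin alone, at 2.38-fold enrichment. The scores of the SKP2 lists were not compared between cells, since their scale is not stated.

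Just inside and just outside the limits of the rule the values were as follows. The widest chosen origins, 51 regions of 9800 bp, had a median score of 408, and the 47 otherwise eligible origins of 10000 bp just outside had 407. In all, 626 origins were left out for their width alone. The smallest overlap with a KO origin was 200 bp, the step of the region caller, and was found for 725 chosen origins, while 353 U2OS-only ligase-free origins touched a KO origin without sharing a base. At the other limit 89 chosen origins touched a CUL4A or CDT2 peak in this way and 212 lay within 200 bp of one.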

How the data were processed

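Lists of enriched regions from 8 of the 11 samples were used, 1 per condition, and no list came with the 3 input samples. Nascent-strand and CUL4A regions carry a score of the authors, called with SICER (window 200 bp, gap 600 bp, false discovery rate 0.01 for origins and 1e-05 for CUL4A). The deposited CDT2 and SKP2 lists carry a score and were called with MACS. The deposited histone lists have the form of broad peaks from MACS, although the methods name SICER, and give the authors' fold enrichment as a ratio and their significance as −log10 p and −log10 q. The build is hg19 per the submitters' processing notes, and the versions of the callers are not given in the sources used here. Scores were used to rank regions within a list only.

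Overlaps of at least 1 bp were counted in Python 3.11.15 with SciPy 1.17.1, pandas 2.3.3 and NumPy 2.4.6. Plots were made in matplotlib 3.10.9. Overlap, coverage and distance functions were tested on simulated data, with 0 of 2000 answers differing from a direct count in each. Shares carry Wilson and differences Newcombe 95% intervals. PCR duplicates, mappability and copy number of the lines could change which regions were called and could not be examined. Named origins are those highest in U2OS score, KO partner score, H3K4me3 or H3K9me3 fold (without the other mark) and SKP2 RepID KO score (SKP2 in both lines), with 1 per chromosome and chromosome 8 left out. Planned gene lists were not counted, since only an annotation of another build was at hand. The origins, groups and lists were chosen with earlier results of these data known. Alternatives covered the overlap, the distance to CUL4A or CDT2, the scores, the width, the strictness of the marks and 1 kb around each centre. Leaving out CDT2 was added after the data had been seen, because the sources differ on its cells.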

Additional observations from a re-analysis of the deposited data

How the results depend on the processing

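No alternative turned the direction of a difference between cross-line and U2OS-only ligase-free origins, and the intervals cover counting error only. With at least 50% of the origin covered, the differences in percentage points were 16.2 for H3K4me3, -2.17 for H3K9me3 and 3.62 for SKP2 in WT cells. Without CUL4A or CDT2 within 5 kb, 12678 origins were left and the H3K4me3 difference was 20 points. With the stronger 50% of U2OS origins, 13534 were left, with 17.7 for H3K4me3 and -2.54 for H3K9me3. With the stronger 50% of KO origins, 13993 were left, with 21.1 for H3K4me3, -1.94 for H3K9me3 and 3.56 for SKP2 in WT cells. For the 10140 origins of 2 to 4 kb, H3K9me3 gave -2.08, and SKP2 gave 2.73 in WT and 2.40 in RepID KO cells. With stricter marks (for the histone lists a −log10 q of at least 2), H3K9me3 gave -0.601, and SKP2 2.32 and 2.52. With 1 kb around each centre the values were 14.5 for H3K4me3, -2.27 for H3K9me3, and 1.83 and 1.60 for SKP2. With CUL4A alone, added after the data had been seen, 24081 origins were chosen and SKP2 in WT cells gave 3.59. In percentage points the H3K4me3 difference ranged from 14.5 to 21.1 and the H3K9me3 difference from -2.54 to -0.601. The cause of these shifts was not tested. No paired analysis was possible because each condition had 1 library. The lists give no depth, so a region below the threshold of a list cannot be told from one without signal.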
